A study of Mus musculus with 6 samples.

Results

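The lysosomal genes examined here are 46 mouse genes for enzymes of the lysosomal lumen, proteins of its membrane, subunits of its proton pump and the transcription factors that govern them. They were chosen by name from general knowledge of the organelle. No measured value is in the rule, but earlier results of these data were known when they were chosen. Each symbol was matched to 1 Ensembl gene of the 55401 genes in the count table. Reads from C3H10T1/2 cells, mouse mesenchymal cells able to turn into osteoblasts, adipocytes or myoblasts, were counted per gene in 6 libraries. The 3 derived lines were shControl, which carries a control short hairpin RNA and whose genotype is labelled WT, shNFIB, with a hairpin against Nfib (NFIB knockdown), and shMLL1, in which the hairpin targets Kmt2a, also named MLL1 (MLL1 knockdown). Each line was sampled untreated at day 0 and at day 7 in osteogenic media, which held β-glycerophosphate, ascorbic acid 2-phosphate and dexamethasone. At day 7 the change of medium and the time in culture cannot be told apart. There was 1 library for each line and day, and whether a line is a clone or a pool is not given in the sources used here. The design asks which lysosomal genes differ following osteogenic stimuli and which differ in cells depleted of NFIB or MLL1.

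Lysosomes are acidic organelles in which hydrolases break down proteins, glycans, glycosaminoglycans and lipids delivered by endocytosis and autophagy. The V-ATPase pumps protons into the lumen, heavily glycosylated membrane proteins shield the limiting membrane, and dedicated carriers export cholesterol and other products. Many of these genes hold an E-box within the CLEAR element, a short palindromic sequence bound by TFEB, TFE3 and MITF, the MiT/TFE family of basic helix-loop-helix leucine zipper factors.

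RefSeq promoter windows from 250 bases before to 50 bases after the start of a gene (GRCm38.p6) were at hand for 41 of the 46 genes. They were searched for the E-box CACGTG and for TCACGTGA, the inner 8 bases of the CLEAR element, which contains the E-box. Both motifs are palindromes, so that 1 search covers both strands. The E-box was found in 13 of the 41 genes (31.7%) and in 8.09% of all 27025 genes with a window, or 11.5% of those whose symbol was tested below. TCACGTGA was found in 6 of the 41, namely Atp6v0d1, Atp6v1a, Ctsa, Ctsd, Gla and Mcoln1 (14.6%, against 1.12% and 2.11%). Shown first are the stretches around every match in a gene whose level differed between the days in the test below, with the motif in capitals, each 5′ to 3′ on the strand of the gene and before the RefSeq start. The last bases of the first Mcoln1 stretch and all of the second lie after the start that GENCODE gives for this gene.
Mcoln1, chr8:3500437-3500464, plus strand: gtcgcgcttgtCACGTGttcagttcagg
Mcoln1, chr8:3500462-3500491, plus strand: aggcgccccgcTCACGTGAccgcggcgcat
Ctsf, chr19:4855062-4855115, plus strand: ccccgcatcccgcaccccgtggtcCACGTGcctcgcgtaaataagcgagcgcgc
Glb1, chr9:114401006-114401059, plus strand: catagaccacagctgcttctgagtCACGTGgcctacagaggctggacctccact

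Mcoln1 and Ctsf were higher at day 7 and Glb1 was lower, so the motif was present in genes of both directions. It was also present in genes that were not called, and Gla and Lamp1 are shown for this reason. They were chosen after their values were seen, Gla for a pair of TCACGTGA matches and Lamp1 for 4 E-boxes within 85 bases.
Gla, chrX:134601169-134601255, minus strand: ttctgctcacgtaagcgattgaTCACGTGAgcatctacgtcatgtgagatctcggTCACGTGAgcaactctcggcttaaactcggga
Lamp1, chr8:13159076-13159160, plus strand: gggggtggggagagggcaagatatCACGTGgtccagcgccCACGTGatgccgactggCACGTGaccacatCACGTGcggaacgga

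Among the genes with a window, the E-box was found in 2 of 7 that were higher at day 7, in 1 of 4 that were lower and in 10 of 28 that were not called. A match describes the letters in a window and does not show that a factor binds there.

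The deepest library was shNFIB at day 0 with a total count of 34774066, and the shallowest was shMLL1 at day 7 with 21608680. Levels are CPM, read counts relative to library size, scaled with TMM factors (trimmed mean of M-values) of 0.908 to 1.129. For the hairpin targets, shNFIB held 35.3 and then 8.15 CPM of Nfib where shControl held 116 and 83.5, and shMLL1 held 30.9 and then 34.8 CPM of Kmt2a where shControl held 74.7 and 66.3. Both targets were lowest in their own line on each day. In shMLL1, Nfib was also below shControl, at 65.5 and then 72.7 CPM. In shNFIB, Kmt2a was above shControl, at 86.5 and then 94 CPM. Mitochondrial genes took 2.01 to 2.65% of counts at day 0 and 4.78 to 7.77% at day 7. All 8 mesenchymal markers passed the filter on low counts, and they summed to 4560 to 10800 CPM. Macrophages and osteoclasts are rich in lysosomes. Of 10 macrophage markers, 5 had at most 3 counts in any library, among them Adgre1, Tyrobp and C1qa at 0 throughout, and the list summed to 12.2 to 23.6 CPM, of which Cd14 made up 10.6 to 23.0 CPM. Fcer1g was called higher at day 7 in the test described below (log2 fold change 2.49, adjusted p = 0.0283), at no more than 0.787 CPM, and Csf1r had 1.78 (adjusted p = 0.0668) at no more than 0.853 CPM. Of 8 osteoclast markers, 3 had at most 3 counts, among them Ocstamp and Dcstamp at 0, and the list summed to 11.7 to 60.1 CPM, of which Itgb3 made up 8.73 to 58.8 CPM and was called lower (-0.86, adjusted p = 0.0271). Ctsk was called higher (2.58, adjusted p = 0.015) and reached 12.1 CPM in shNFIB at day 7. The part of these markers in the results was not tested.

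Of the 46 genes, 43 passed the filter on low counts and entered the test. Ctss, for cathepsin S of antigen-presenting cells, had 0 counts in every library. Ctsc, for the dipeptidyl peptidase that activates serine proteases of immune cells, had 17 counts in all 6 libraries together, and Ctsh, for cathepsin H, had 8. Comparisons between days or lines were not possible for these 3 genes at this depth.

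Per kilobase of exon, the 43 tested genes spanned about 3 orders of magnitude (plot of levels per exon length). Laptm4a, for a small membrane protein of late endosomes and lysosomes, had the highest mean level over the 6 libraries, 1098 CPM per kb. It was followed by Psap (666.6), Lamp1 (540.1), Ctsd (397.7), Cd63 (265.1) and Sqstm1 (262.5). Each of these overlapped its neighbour in this order across libraries. In shNFIB at day 0, for example, Lamp1 (639 CPM per kb) lay above Laptm4a (548.5). The lowest means were those of Ctsf (2.45), Manba (2.36), Mitf (2.30) and Tfeb (1.82), whose ranges also overlapped. Ctsd shares 808 of its 2351 exon bases with Gm49369 on the same strand. Together the 46 genes took 1.5% of the shControl counts at day 0 and 1.87% at day 7. The shares were 1.32% and then 1.96% for shNFIB, and 1.32% and then 1.68% for shMLL1. The 10 most abundant of them held 64.7 to 75.0% of that share, so the summed share follows a few genes.

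**Figure D1:**
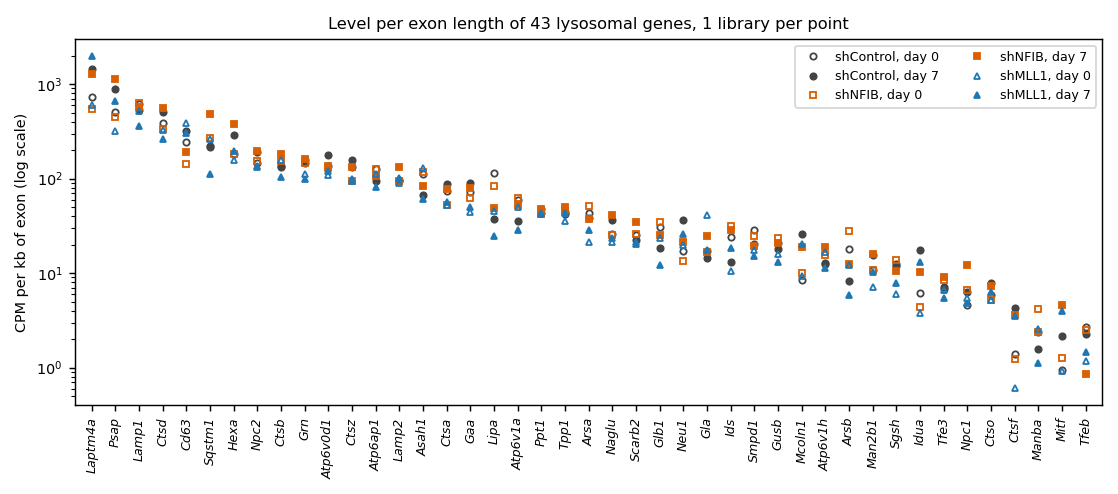
Level of each of the 43 tested lysosomal genes in CPM per kilobase of exon (y axis, log scale), ordered by the mean over the 6 libraries. Each point is 1 library, open at day 0 and filled at day 7. Laptm4a has the highest mean, with points at 548.5 to 1985 CPM per kb, and Tfeb the lowest mean, with points at 0.859 to 2.67, while the lowest single point is Ctsf in shMLL1 at day 0 (0.605).

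Following osteogenic stimuli, lysosomal genes did not move as a block. The 3 libraries of day 7 were set against those of day 0 by the edgeR quasi-likelihood method, blocked on line and with 2 residual degrees of freedom. P-values were adjusted by Benjamini-Hochberg over all 16742 genes tested, and a gene was called at a false discovery rate (FDR) of 0.05. Ctsf, Mitf, Idua, Laptm4a, Mcoln1, Psap and Neu1 rose, which is 7 of 43 (16.3%), whereas Arsb, Lipa, Manba, Asah1 and Glb1 fell, which is 5 of 43 (11.6%). Among all genes tested 16.9% were higher and 16.7% were lower, so the shares are near or below this background and are no result about the set. All 43 genes had a mean CPM of at least 10. In a fit of such genes alone, 10 of the 43 were called higher and 2 lower, against 16.3% and 14.6% of the genes in it. Ctsf, Idua, Mitf and Arsb were called whichever line was left out, although Arsb was not called with no line block (-1.11, adjusted p = 0.0534), and the other 8 lost their call without at least 1 of the lines. The median log2 fold change was 0.05 over the 43 genes, 0.00 over all genes and -0.18 over those with a mean CPM of at least 10. In CPM, the 3 libraries of day 7 lay above the 3 of day 0 for 10 of the 43 genes (23.3%) and below for 2 (4.65%), against 23.7% and 20.9% of all genes. Proliferation genes fell at the same time, with 10 of 10 called lower, and 4 of the 6 adipocyte markers tested were called higher (9 were listed). Of these, Plin1, Cidec and Cfd had 0 counts at day 0 and 472, 681 and 2129 at day 7 in shControl. At day 7 they had 9, 5 and 22 counts in shNFIB and 28, 17 and 45 in shMLL1. Pparg, also called, went from 52.2 to 84.2 CPM in shNFIB. Cebpa was lower at day 7 in each line but not called (-0.64, adjusted p = 0.114). The summed level of the adipocyte markers went from 50.8 to 169 CPM in shControl, 63.3 to 93.4 CPM in shNFIB and 18.2 to 32.0 CPM in shMLL1. Of 8 osteoblast markers, 5 were tested and 2 were called higher, Alpl (4.45, adjusted p = 0.00156) and Ifitm5 (1.82, adjusted p = 0.0358). They were at no more than 7.27 and 2.59 CPM. That list summed to 263 CPM before and 1560 CPM after in shControl, beside 253 and 268 CPM for shNFIB and 262 and 357 CPM for shMLL1. Spp1, which was not called (adjusted p = 0.161), made up 217 and 1380 CPM of it in shControl, 217 and 226 CPM in shNFIB and 224 and 303 CPM in shMLL1. The part of these lists in the changes below was not tested. In such bulk libraries, fewer cells of a type and less RNA per cell cannot be told apart. P-values rest on the spread left after line and day are fitted. That spread holds differences between lines in the day change as well as noise, since there is 1 RNA-seq library per condition.

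**Figure D2:**
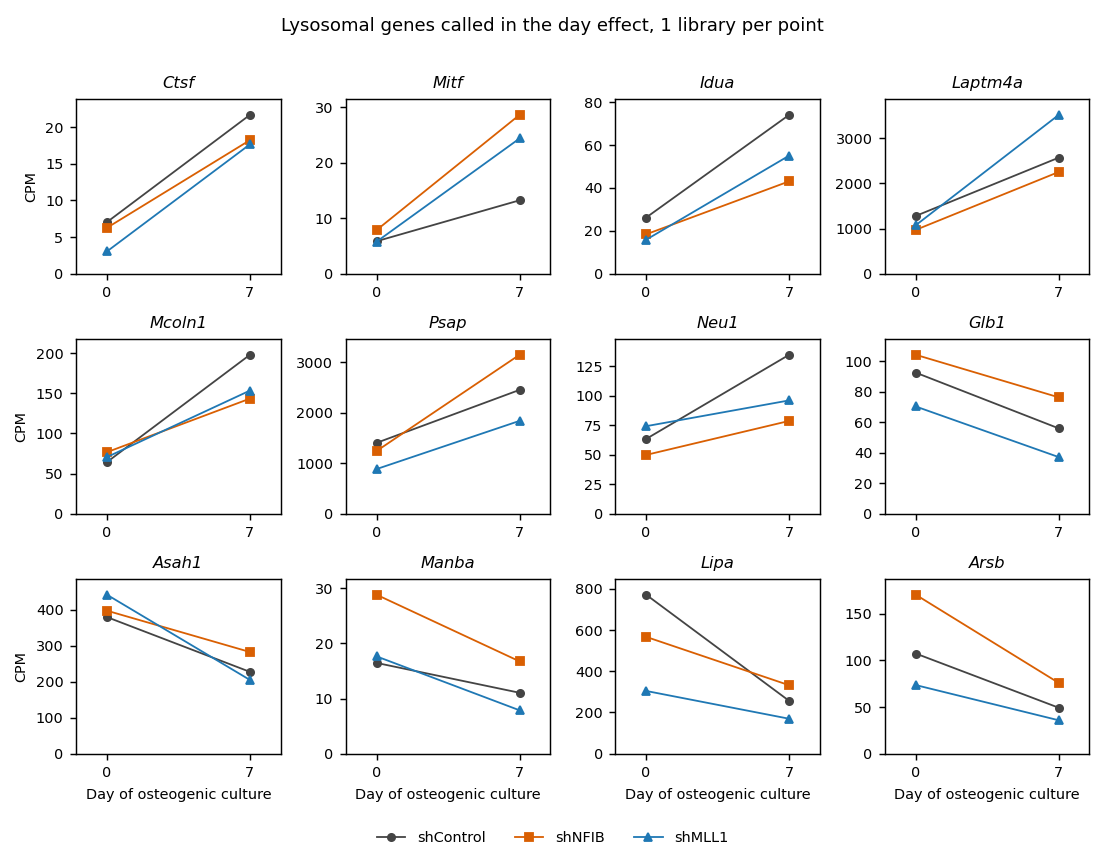
CPM (y axis, linear from 0) at day 0 and day 7 (x axis) of the 12 lysosomal genes called in the day effect, in order of fold change, 1 library per point and 1 line of the plot per cell line. The change has the same direction in the 3 cell lines in each panel.

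Within the cathepsins and tripeptidyl peptidases, Ctsf stood out. Ctsf (ENSMUSG00000083282, chromosome 19 of GRCm38 from 4855130 to 4860918), for the cysteine protease cathepsin F, was at 7.04, 6.27 and 3.05 CPM at day 0 in shControl, shNFIB and shMLL1, and at 21.7, 18.2 and 17.7 CPM at day 7. Each library of day 7 lay above each of day 0. Its log2 fold change was 1.88 (standard error 0.27, adjusted p = 0.0033). It was 1.62 in shControl (95% counting interval 1.40 to 1.85), 1.54 in shNFIB (1.30 to 1.78) and 2.53 in shMLL1 (2.21 to 2.88). The other 6 tested members of the group were not called. Ctso, for cathepsin O, was higher at day 7 in every line with no overlap of the days (26.5 to 29.7 CPM against 32.1 to 40.4 CPM), at an estimate of 0.38 (adjusted p = 0.147). Ctsb, the most read cysteine cathepsin of the set, was at 636.2 to 1113 CPM, and the days overlapped, with an estimate of -0.12 (adjusted p = 0.753). The estimates of Ctsa, for the protective protein cathepsin A, of Ctsd, of Ctsz and of Tpp1, for the tripeptidyl peptidase of the set, lay between 0.15 and 0.30, with adjusted p-values of 0.34 to 0.572. Ctsb and Ctsa each overlap exons of a gene on the other strand, Fdft1 by 774 bases and Pltp by 495 bases, and the strand setting of the counting is not given in the sources used here.

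The glycosidases split by direction. Idua (ENSMUSG00000033540, chromosome 5 from 108660331 to 108684557), for the α-L-iduronidase that trims heparan and dermatan sulfate, was at 26.2, 18.4 and 15.9 CPM at day 0 in shControl, shNFIB and shMLL1. At day 7 it was at 74.1, 43.1 and 55.1 CPM, so that the lowest day 7 library exceeded the highest day 0 library. The log2 fold change was 1.49 (standard error 0.19, adjusted p = 0.0022), the smallest adjusted p of the set. Exons of Idua overlap Dgkq and Slc26a1 on the other strand by 124 and 141 bases. Neu1 (ENSMUSG00000007038, chromosome 17 from 34931253 to 34935953), for the sialidase that works in a complex with the products of Ctsa and Glb1, went from 63.5, 49.9 and 74.3 CPM to 134.9, 78.8 and 96.2 CPM. Its log2 fold change was 0.69 (standard error 0.21, adjusted p = 0.0423). Its difference between days was widest in shControl, at 1.09 (1.01 to 1.17), and narrowest in shMLL1, at 0.37 (0.29 to 0.46).

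In the other direction, Glb1 (ENSMUSG00000045594, chromosome 9 from 114401076 to 114474898), for the acid β-galactosidase, went from 92.4, 104.1 and 70.3 CPM to 55.9, 76.2 and 37.1 CPM in shControl, shNFIB and shMLL1. The fall was -0.71 on the log2 scale (standard error 0.20, adjusted p = 0.03). Manba (ENSMUSG00000028164, chromosome 3 from 135485611 to 135571404), for β-mannosidase of N-glycan breakdown, went from 16.5, 28.9 and 17.7 CPM to 11.1, 16.8 and 7.87 CPM, with -0.85 (standard error 0.23, adjusted p = 0.0268). Both genes were lower at day 7 within each line, while the days overlapped, with the shNFIB library of day 7 above another line's library of day 0. Glb1 shares 165 exon bases with Tmppe on the same strand. The remaining 6 glycosidases were not called in edgeR's main fit. Hexa, for the α subunit of β-hexosaminidase, was at 316.5 to 367.2 CPM at day 0 and 394.9 to 761.6 CPM at day 7 with no overlap, and its estimate of 0.66 had an adjusted p of 0.0822. It shares 255 exon bases with Tmem202 on the other strand. Man2b1 for lysosomal α-mannosidase had 0.52 (adjusted p = 0.0602), Naglu for the α-N-acetylglucosaminidase of heparan sulfate had 0.44 (0.128) and Gaa for the glucosidase of lysosomal glycogen had 0.27 (0.35). DESeq2 called Hexa and Man2b1 higher (adjusted p = 0.022 and 0.0312). So did edgeR with total count scaling (0.035 and 0.0295), where Glb1 lost its call (0.0543). In edgeR's fit of genes with a mean CPM of at least 10, Hexa, Man2b1 and Naglu were called higher (0.0395, 0.0215 and 0.047). Glb1 and Manba lost their calls there (0.0674 and 0.0607). Gusb, for β-glucuronidase, was lower at day 7 within each line, at 72.3 to 105.8 CPM before and 59.3 to 94.1 CPM after, with -0.24 (0.312), and Gla had -0.31 (0.511).

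Among the 4 sulfatases, Arsb was the one that was called. Arsb (ENSMUSG00000042082, chromosome 13 from 93771630 to 93943016), for the arylsulfatase that acts on dermatan and chondroitin sulfate, was at 107.4, 170.5 and 73.6 CPM at day 0 and at 49.2, 75.9 and 35.8 CPM at day 7 in shControl, shNFIB and shMLL1. The change was of similar size within the lines, at -1.13 (-1.21 to -1.04), -1.17 (-1.24 to -1.10) and -1.04 (-1.15 to -0.93), while the days overlapped across lines. Over the lines the log2 fold change was -1.12 (standard error 0.18, adjusted p = 0.00454). Arsb shares exon sequence with the non-coding genes Gm26527 and Gm47210 on the other strand. Sgsh, for the heparan sulfamidase, and Arsa, for the arylsulfatase of sulfatide, had estimates of -0.03 (adjusted p = 0.908) and -0.10 (0.757). Both were lower at day 7 in shControl and shNFIB and higher in shMLL1. On the other strand, Sgsh overlaps Card14 by 955 exon bases and Arsa overlaps C230037L18Rik by 690, genes with 89 and 497 counts in all libraries.

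Of the enzymes and carriers of lipids, Psap rose and Lipa and Asah1 fell. Psap (ENSMUSG00000004207, chromosome 10 from 60277627 to 60302597), for prosaposin, the precursor of the saposins that help hydrolases reach sphingolipids, was at 1404, 1242 and 884.7 CPM at day 0 and at 2454, 3150 and 1840 CPM at day 7 in shControl, shNFIB and shMLL1. The days did not overlap, and the log2 fold change was 1.06 (standard error 0.29, adjusted p = 0.0291). Lipa (ENSMUSG00000024781, chromosome 19 from 34492318 to 34527474), for the acid lipase of cholesteryl esters and triglycerides, went from 772, 567.2 and 304.5 CPM to 256.3, 332.3 and 169.5 CPM. Its log2 fold change over the lines was -1.08 (standard error 0.26, adjusted p = 0.0193), and it was -1.59 (-1.63 to -1.55) in shControl against -0.77 (-0.81 to -0.74) in shNFIB and -0.85 (-0.90 to -0.79) in shMLL1. Whether the lines differ in this change was not tested, since an interaction of line and day leaves no residual degrees of freedom.

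Asah1 (ENSMUSG00000031591, chromosome 8 from 41340197 to 41374773), for acid ceramidase, was at 379.6, 397.4 and 441.8 CPM at day 0 and at 227.3, 282.5 and 204.8 CPM at day 7. Each day 7 library lay below each day 0 library, with a log2 fold change of -0.79 (standard error 0.24, adjusted p = 0.0394). Smpd1, for acid sphingomyelinase, was lower at day 7 in each line but not called (-0.36, adjusted p = 0.15). Ppt1, for the thioesterase that removes fatty acids from proteins, had an estimate of 0.00 (standard error 0.20). Ppt1 overlaps Cap1 on the other strand by 129 exon bases, and Cap1 had 70004 counts in all libraries against 29234 for Ppt1. Of the pair of cholesterol exporters, Npc2 was at 729.1 to 1061 CPM with an estimate of 0.23 (adjusted p = 0.514) and Npc1 at 51.8 to 138.6 CPM with 0.38 (0.265).

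The membrane proteins held a pair of genes with large rises. Mcoln1 (ENSMUSG00000004567, chromosome 8 from 3500457 to 3515232), for the calcium-permeable channel TRPML1 and the gene with both motifs printed above, was at 64.3, 76.6 and 70.5 CPM at day 0 in shControl, shNFIB and shMLL1. At day 7 it was at 198, 143.4 and 153.4 CPM, more than any day 0 library. The log2 fold change was 1.20 (standard error 0.22, adjusted p = 0.0072). Laptm4a (ENSMUSG00000020585, chromosome 12 from 8921664 to 8938742) was at 1281, 972.5 and 1075 CPM at day 0 and at 2572, 2255 and 3519 CPM at day 7, and the days did not overlap. Its log2 fold change was 1.30 (standard error 0.29, adjusted p = 0.0161). In contrast, the structural proteins of the limiting membrane were not called. Lamp1 had an estimate of -0.31 (adjusted p = 0.397), Lamp2 of 0.21 (0.539), the tetraspanin gene Cd63 of 0.15 (0.705) and Scarb2, for LIMP-2, the receptor that carries β-glucocerebrosidase to lysosomes, of 0.05 (0.867). Smaller overlaps with genes on the other strand, of 10 to 249 exon bases, were found for Lamp1, Ctsz, Atp6v1h and Grn. Lamp2 libraries of day 7 (927.4 to 1256 CPM) lay above those of day 0 (863 to 911.3 CPM).

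None of the 4 V-ATPase genes was called in edgeR's test. Atp6v1a, for the catalytic subunit, was lower at day 7 in each line with an estimate of -0.61, an unadjusted p of 0.0352 and an adjusted p of 0.0829. It was called lower by DESeq2, with an adjusted p of 0.0385. Atp6ap1, for an accessory subunit, was at 341.5 to 385.6 CPM at day 0 and 245.8 to 326.2 CPM at day 7 without overlap (-0.39, adjusted p = 0.189). The membrane-sector gene Atp6v0d1 and the cytosolic-sector gene Atp6v1h had estimates of 0.19 (0.493) and -0.12 (0.713).

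The 3 MiT/TFE genes differed from one another. Mitf (ENSMUSG00000035158, chromosome 6 from 97807052 to 98021349) was at 5.85, 7.85 and 5.77 CPM at day 0 and at 13.2, 28.6 and 24.3 CPM at day 7 in shControl, shNFIB and shMLL1, with no overlap. The log2 fold change was 1.69 (standard error 0.25, adjusted p = 0.00381). Tfe3 was at 51.0 to 84.3 CPM with -0.05 (adjusted p = 0.862), the highest CPM of the family in every library. Tfeb was the lowest of the 43 genes per kilobase, with an estimate of -0.49 (standard error 0.36, adjusted p = 0.316), and its lines are described below. Grn, for progranulin, was at 343.4 to 555.1 CPM with -0.06 (0.844), and Sqstm1, for the autophagy receptor p62, had -0.15 (0.808) with the largest standard error of the set, 0.43.

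**Figure D3:**
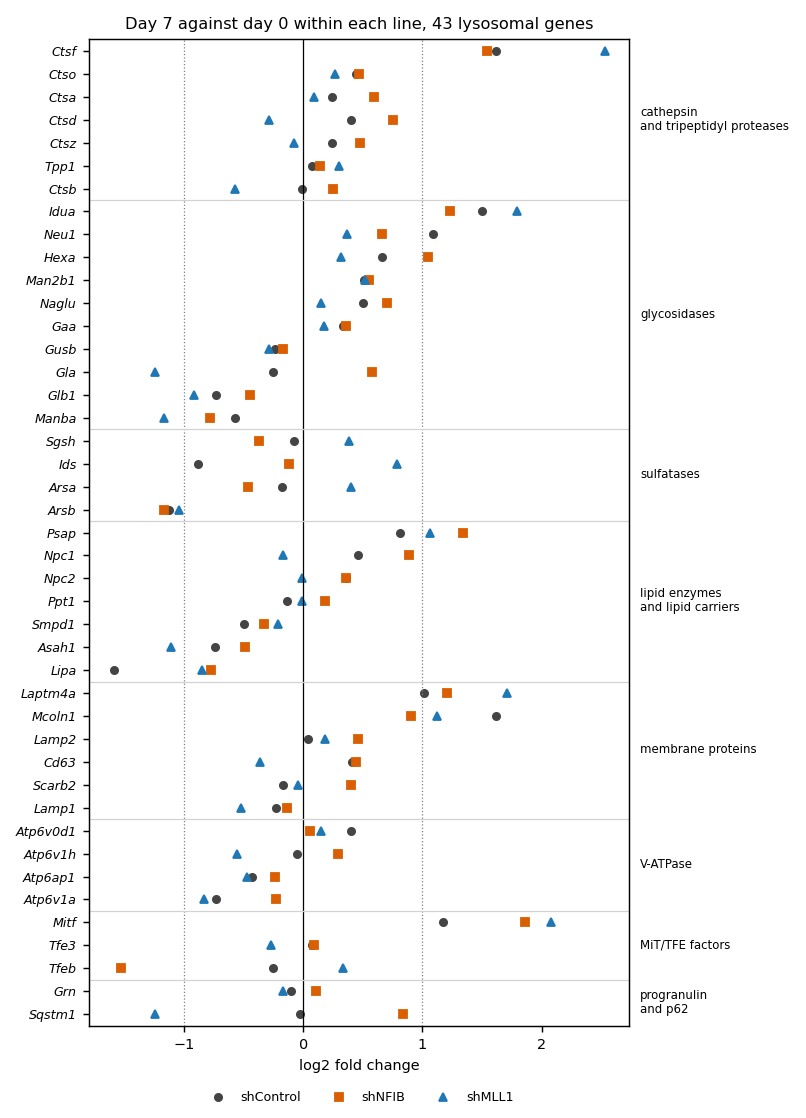
Log2 fold change of day 7 against day 0 (x axis) within shControl, shNFIB and shMLL1 for the 43 tested genes (y axis, grouped by role), each point being 1 pair of libraries. Dotted lines mark 2-fold. Ctsf, Idua, Laptm4a and Mitf lie beyond 2-fold to the right in the 3 lines and Arsb to the left, whereas the points of Sqstm1, Tfeb, Gla and Ids fall on both sides of 0.

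Within lines there was 1 library a day and no test, and a change over 2-fold was counted. In shControl 6 of the 43 genes were over 2-fold higher (14.0%, against 22.1% of all genes tested) and 2 were lower (4.65%, against 14.8%). In shNFIB there were 6 higher (background 17.1%) and 2 lower (13.4%), and in shMLL1 there were 6 higher (25.3%) and 5 lower (11.6%, background 18.6%). Ctsf, Idua, Laptm4a and Mitf were over 2-fold higher in each line, and Arsb was over 2-fold lower in each line. Among the 9910 genes with a mean CPM of at least 10, a background chosen after seeing the data, shares over 2-fold were smaller for rises. They were 8.73%, 7.3% and 12.8% higher and 14.2%, 10.9% and 18.6% lower in shControl, shNFIB and shMLL1. Regardless of size, 16 of the 43 genes were higher in the 3 lines (37.2%, against 33.6% of all genes and 25.2% in that background). In the 3 lines 10 were lower (23.3%, against 33.1% and 41.9%). The median of the 43 genes was 0.04 in shControl, 0.36 in shNFIB and -0.01 in shMLL1, beside -0.01, -0.02 and 0.06 over all genes. Over the genes with a mean CPM of at least 10 it was -0.22, -0.12 and -0.17.

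The day change ran in opposite directions in some lines. A gene was counted when the counting intervals of both lines excluded 0 on opposite sides and the changes were over 2-fold apart. Between shNFIB and shMLL1 this held for Ctsd, Sqstm1, Tfeb, Npc1 and Gla, 5 of 43 genes, against 5.21% of all genes tested. Between shControl and shMLL1 it held for Ids alone, against 4.25% of all genes. Between shControl and shNFIB it held for 0 of the 43 genes, against 1.74%. None of these differences between lines could be tested.

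Sqstm1 (ENSMUSG00000015837, chromosome 11 from 50199366 to 50210827) stood at 746.9 CPM at day 0 and 732.8 CPM at day 7 in shControl. The same days gave 907.7 and 1629 CPM for shNFIB but 891.5 and 377.1 CPM for shMLL1. Its log2 fold change was -0.03 (-0.05 to 0.00) in shControl, 0.84 (0.82 to 0.86) in shNFIB and -1.24 (-1.28 to -1.21) in shMLL1, so that the knockdown lines parted at day 7. Its exons overlap Mrnip on the other strand by 580 bases, a gene with 446 counts in all libraries against 159115 for Sqstm1. Gla (ENSMUSG00000031266, chromosome X from 134588149 to 134601125), for α-galactosidase A, was at 55.8 and 47.0 CPM in shControl, 54.5 and 81.5 CPM in shNFIB, and 133.8 and 56.8 CPM in shMLL1. The shMLL1 library of day 0 stood above the other 5, and the change was -1.24 (-1.33 to -1.15) in that line and 0.58 (0.49 to 0.67) in shNFIB. Ids (ENSMUSG00000035847, chromosome X from 70343069 to 70365084), for the iduronate sulfatase of heparan and dermatan sulfate, was at 124.4 and 67.5 CPM in shControl, 159.2 and 146.8 CPM in shNFIB, and 54.1 and 93.3 CPM in shMLL1. Its change was -0.88 (-0.96 to -0.80) in shControl and 0.79 (0.69 to 0.88) in shMLL1.

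Tfeb (ENSMUSG00000023990, chromosome 17 from 47737030 to 47792419) was at 15.2 and 12.7 CPM in shControl, 14.1 and 4.87 CPM in shNFIB, and 6.66 and 8.36 CPM in shMLL1. The lowest library was shNFIB at day 7. That line had a day change of -1.53 (-1.81 to -1.26), whereas shMLL1 was low at day 0 and had 0.33 (0.04 to 0.62). Ctsd (ENSMUSG00000007891, chromosome 7 from 142375911 to 142388038), for the aspartic protease cathepsin D, was at 913 and 1206 CPM in shControl, 784.3 and 1323 CPM in shNFIB, and 762.3 and 621.7 CPM in shMLL1. Npc1 (ENSMUSG00000024413, chromosome 18 from 12189692 to 12236400), for the membrane carrier of cholesterol, was at 51.8 and 71.2 CPM, 74.6 and 138.6 CPM, and 61.8 and 54.8 CPM. Both were higher at day 7 in shControl and shNFIB and lower in shMLL1. Exons of Npc1 overlap Rmc1 on the other strand by 511 bases, a gene with 8137 counts in all libraries against 13478 for Npc1.

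**Figure D4:**
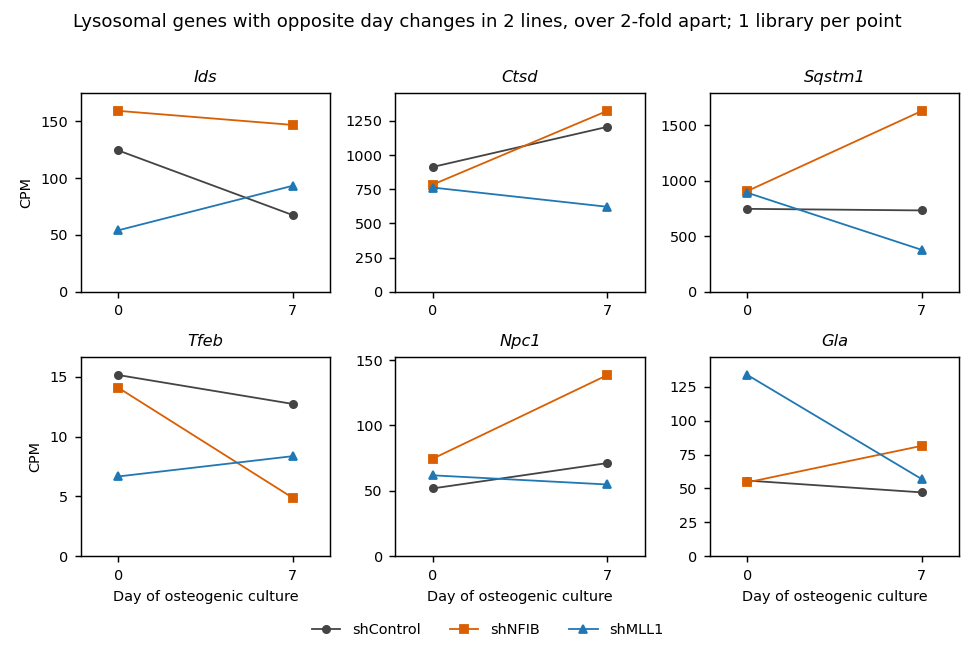
CPM (y axis, linear from 0) at day 0 and day 7 (x axis) of the 6 lysosomal genes whose change over the days had opposite directions in 2 lines and was over 2-fold apart, 1 library per point. Sqstm1, Ctsd, Npc1 and Gla were higher at day 7 in shNFIB and lower in shMLL1, and Tfeb the reverse.

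Depletion of NFIB was accompanied by no called difference in a lysosomal gene. In the same edgeR quasi-likelihood fit with Benjamini-Hochberg adjustment, 0 of the 43 genes were called higher or lower in shNFIB than in shControl, against 0.113% and 0.305% of all genes, and DESeq2 called 0 as well. At an unadjusted p under 0.05 there were 4 higher (Manba, Arsb, Npc1 and Mitf) and 2 lower (Idua and Neu1), while 6.46% and 5.94% of all genes tested reached that level. Manba had a log2 fold change of 0.66 (standard error 0.27, adjusted p = 0.39) and Idua of -0.68 (standard error 0.23, adjusted p = 0.306). An adjusted p that misses the threshold does not show that the lines were alike. For either knockdown line, the 2 libraries a side are the 2 days of 1 line, so no spread between independent lines is measured. The median was 0.06 over the 43 genes and 0.00 over all.

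At day 0, none of the 43 genes differed over 2-fold between shNFIB and shControl, against 7.74% higher and 7.07% lower among all genes. Of genes with a mean CPM of at least 10, 2.55% were higher and 2.22% lower. The extremes of the 43 were Manba at 0.81 (0.65 to 0.97) and Cd63 at -0.77 (-0.80 to -0.75). At day 7, Ids, Mitf and Sqstm1 were over 2-fold higher (6.98%, against 7.98% of all genes and 5.63% with mean CPM of at least 10). Tfeb was over 2-fold lower (2.33%, against 12.4% and 3.46%). In that order, the log2 fold changes of these genes were 1.12 (1.04 to 1.20), 1.11 (0.94 to 1.29), 1.15 (1.13 to 1.18) and -1.38 (-1.67 to -1.11). Thus Tfeb and Mitf, which encode related factors, stood on opposite sides in the same library. Cd63 was lower than in shControl at day 7 too, with 710.1 against 1189 CPM, or -0.74 (-0.77 to -0.72).

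In shMLL1 most of the 43 lysosomal genes lay somewhat below shControl, without a called gene. The lists of other genes given at the end were compared by summed CPM, a different measure, and not all of those sums were below shControl. The edgeR quasi-likelihood fit with Benjamini-Hochberg adjustment called 0 of the 43 genes higher or lower over both days (0.0119% and 0.0179% of all genes tested), as did DESeq2. At an unadjusted p under 0.05 there were 0 higher and 6 lower, namely Gaa, Man2b1, Sgsh, Arsa, Lipa and Smpd1, against 4.15% and 5.05% of all genes. The median over the 43 genes was -0.31, beside 0.02 over all genes, and 35 of the 43 estimates were below 0 (81.4%, against 48.0% of all genes). These genes are well expressed, and among the 9910 genes with a mean CPM of at least 10, a background chosen after seeing the data, the share below 0 was 53.2%. The count describes this pair of lines, and genes of 1 library are not replicates of a condition.

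The days differed in how this difference was spread. At day 0, 6 genes were over 2-fold lower in shMLL1 (14.0%, against 10.3% of all genes and 5.68% with mean CPM of at least 10). Over 2-fold higher was 1 gene (2.33%, against 10.3% and 3.27%). The lower ones were Lipa at -1.34 (-1.38 to -1.31), Ctsf at -1.21 (-1.57 to -0.85), Ids at -1.20 (-1.29 to -1.12), Tfeb at -1.19 (-1.43 to -0.95), Sgsh at -1.04 (-1.16 to -0.91) and Arsa at -1.0 (-1.07 to -0.93), and the higher one was Gla at 1.26 (1.18 to 1.34). With size factors by relative log expression, 4 rather than 6 genes were over 2-fold lower at day 0, against 9.27% of all genes. Over 2-fold higher was again 1 gene, against 11.4%. The number lower thus depends on the scaling. At day 7, none of the 43 was over 2-fold higher or lower, against 7.47% and 6.39% of all genes. Of genes with a mean CPM of at least 10, 2.14% and 2.73% were. Of the 43 genes, 38 were below shControl at day 7 (88.4%, against 52.7% of all genes and 58.0% of those with a mean CPM of at least 10), with a median of -0.42 beside -0.03 over all genes. The range ran from -0.96 for Ctsd and Sqstm1 to 0.88 for Mitf. Scaled by total count, 35 of the 43 were below 0 at day 7 with a median of -0.32, beside 43.4% and 0.08 over all genes.

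At both days, 29 of the 43 genes were lower in shMLL1 than in shControl (67.4%, against 30.4% of all genes tested and 35.5% of those with a mean CPM of at least 10), and Gla alone was higher at both. With size factors by relative log expression the number was 28 (28.1% of all genes), and with total counts it was 27 (25.4%). Gaa was at 212.3 and 238.2 CPM in shMLL1 at day 0 and day 7 against 345.8 and 433.2 CPM in shControl, Ctsz, for a carboxypeptidase, at 142.6 and 134.7 CPM against 191.3 and 226.1 CPM, and Psap at 884.7 and 1840 CPM against 1404 and 2454 CPM. By role, the day 0 medians ran from -1.02 in the sulfatases to -0.03 in the MiT/TFE genes, with -0.17 in the lipid group. The day 7 medians were -0.35 in the proteases, -0.51 in the glycosidases, -0.44 in the sulfatases and -0.41 in the lipid group. They were -0.28 in the 4 V-ATPase genes, -0.38 in the MiT/TFE genes and -0.76 for Grn and Sqstm1. The membrane proteins had -0.11 at day 7, the size of the shift of 0.11 that total count scaling gives the median of all genes. The adipocyte markers summed to less in shMLL1 than in shControl on either day (18.2 and 32.0 CPM against 50.8 and 169 CPM). So did the mesenchymal markers (5490 and 4560 CPM against 7810 and 5890 CPM). Vim made up 1940 and 1180 CPM of these sums in shMLL1 and 4150 and 1810 CPM in shControl. Single mesenchymal markers went either way. At day 0 Twist1, Col1a1 and Ly6a were higher in shMLL1 and the others lower. At day 7 Prrx1, Twist1, Pdgfra, Pdgfrb and Ly6a were higher, and Thy1, Vim and Col1a1 lower. The part of both lists was not tested. The shMLL1 library of day 7 was the shallowest and had the largest TMM factor, and the part of depth in this difference was not tested. Both knockdown lines were compared with the same shControl libraries.

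**Figure D5:**
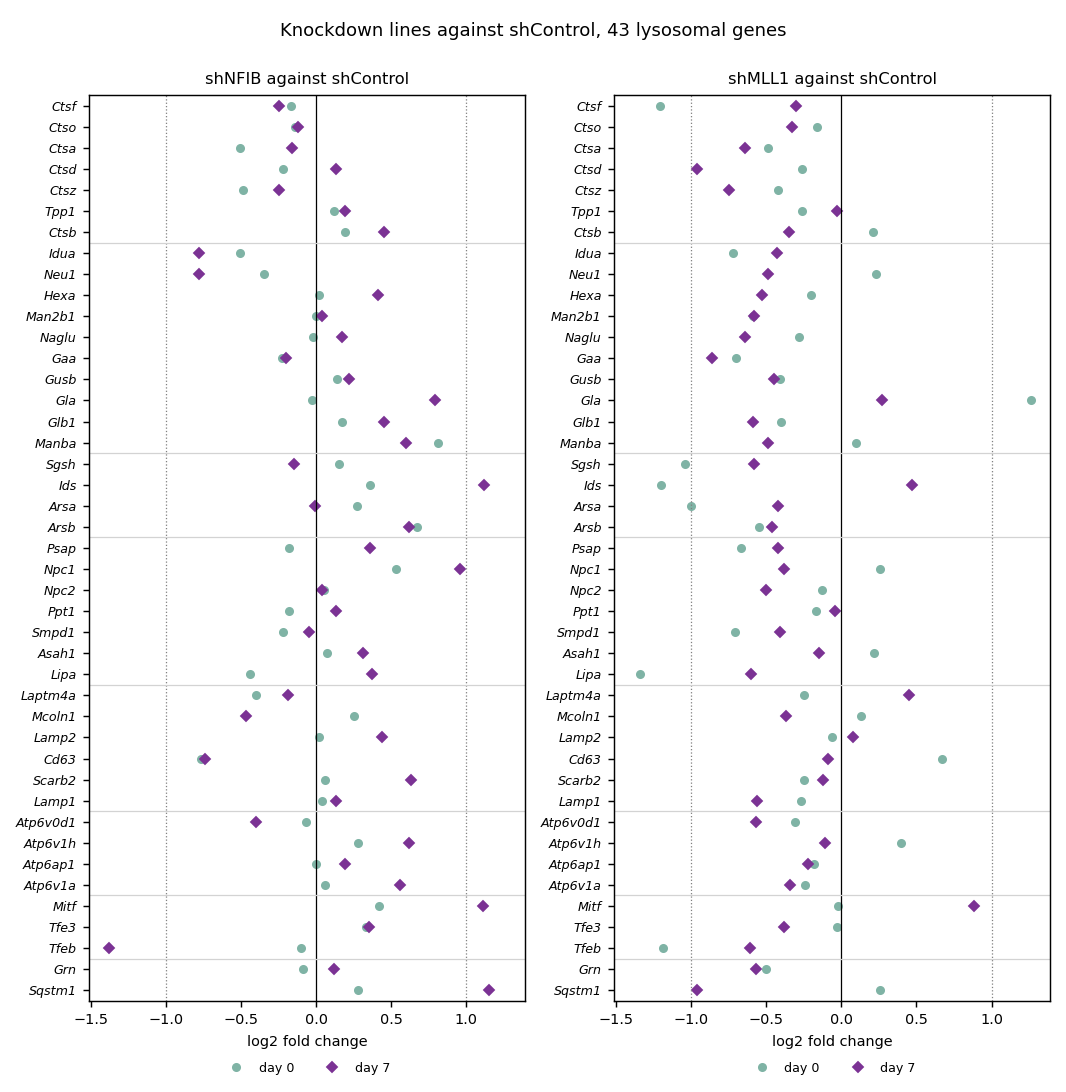
Log2 fold change of shNFIB (left) and shMLL1 (right) against shControl (x axis) at day 0 and day 7 for the 43 tested genes (y axis, same order in both panels), each point being 1 pair of libraries. Dotted lines mark 2-fold. In shMLL1 38 of the 43 diamonds of day 7 lie left of 0, with a median of -0.42, and in shNFIB 15 do, with a median of 0.17.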

How the data were processed

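RNA-seq was done on C3H10T1/2 cells of 3 lines at 2 days, 1 library each. Per the study's methods and the submitters' processing notes, paired reads were trimmed (Trimmomatic 0.39), aligned to GRCm38 (HISAT2 2.2.1), cleared of low mapping quality and PCR duplicates (SAMtools among the tools) and counted by gene (HTSeq 0.11.1). The authors deposited unscaled counts, and the annotation release and strand setting are not given in the sources used here. Symbols, exon lengths and overlaps were taken from GENCODE M21.

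Counts were tested with edgeR 4.0.16 under R 4.3.3 (line and day as terms, TMM factors, filterByExpr at its minimum count of 10, common biological coefficient of variation 0.281), and again with DESeq2 1.42.0. Both days of a line share its cells, so line pairs them, and deviations from the day means correlated within lines by 0.376, 0.417 and 0.243 across genes. TMM factors for CPM and for pairs of libraries used all genes, and fold changes had a prior count of 0.125. Intervals are exact Clopper-Pearson 95% intervals of counts and cover counting error only. Scripts were tested on simulated counts. Figures used Python 3.11.15 and matplotlib 3.10.9. The rule for named genes takes all 46 lysosomal genes, the hairpin targets, the marker lists and, of each list of other genes, the 3 with the largest day effect, with Igf2r added after its value was seen. Promoter stretches shown are those of genes called in the day effect, plus Gla and Lamp1. The lysosomal genes and the lists of other genes were chosen with earlier results of these data known. Alternatives were other scalings, filters, prior counts and fold thresholds, no line block, and each line left out; the background of genes with a mean CPM of at least 10 for pairs of libraries was chosen after seeing the data.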

Additional observations from a re-analysis of the deposited data

Results flagged for a closer look

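The day changes of 6 lysosomal genes were singled out because a pair of lines moved in opposite directions, with counting intervals off 0 on both sides and changes over 2-fold apart. With 1 library a condition the difference was not tested for any of them. The log2 day change of shControl minus that of shMLL1 was -1.67 for Ids. The change of shNFIB minus that of shMLL1 was 2.09 for Sqstm1, 1.82 for Gla, 1.07 for Npc1, 1.05 for Ctsd and -1.86 for Tfeb. Among all 16742 genes tested, 4.25% met the same criteria between shControl and shMLL1 and 5.21% between shNFIB and shMLL1, beside 1 and 5 of the 43 lysosomal genes. No group had 4 or more libraries, so a library standing apart within a group could not be looked for.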

How the results depend on the processing

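No lysosomal gene with a called change turned direction under the alternatives run. In the day effect, 7 genes were called higher and 5 lower. With total count scaling 9 were called higher and 3 lower, against 19.6% and 12.6% of all genes in that fit. Among genes with a mean CPM of at least 10 there were 10 and 2 (against 16.3% and 14.6%). With no line block there were 6 and 1 (13.7% and 11.8%), and DESeq2 called 9 and 6 (19.5% and 19.4%). Scaling by total count moved the split over all genes to 3288 higher and 2116 lower, from 2834 and 2790, and the filter at a mean CPM of 10 set the scaling on abundant genes. With 1 line left out, and so fewer libraries, 3 to 10 were called higher and 1 to 3 lower. Without shControl the counts were 3 and 1 (against 7.61% and 7.51% of all genes). Without shNFIB they were 5 and 3 (15.9% and 14.1%), and without shMLL1 10 and 2 (15.4% and 16.1%). Ctsf, Idua, Mitf and Arsb were called whichever line was left out, and of these Arsb lost its call with no line block (-1.11, adjusted p = 0.0534). Without shControl the log2 fold change and adjusted p were 1.01 and 0.0629 for Mcoln1, 1.46 and 0.0895 for Laptm4a, 1.19 and 0.142 for Psap, 0.51 and 0.291 for Neu1, -0.81 and 0.182 for Lipa, -0.98 and 0.0863 for Manba, -0.81 and 0.202 for Asah1 and -0.69 and 0.173 for Glb1. Thus Laptm4a, Psap, Manba and Asah1 lost the call with an estimate at least as far from 0 as with the 3 lines. Without shNFIB they were 0.93 and 0.119 for Psap, 0.73 and 0.0878 for Neu1, -0.87 and 0.0604 for Manba and -0.93 and 0.0579 for Asah1. Without shMLL1 they were -0.65 and 0.0616 for Manba, -0.58 and 0.0668 for Asah1 and -0.55 and 0.0597 for Glb1, and Hexa (0.89, adjusted p = 0.0232), Naglu (0.63, 0.0364) and Npc1 (0.71, 0.0318) were called higher.

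Total count scaling moved the median log2 change between days over all genes by 0.10 for shControl, 0.09 for shNFIB and 0.21 for shMLL1. The median of the lysosomal genes became 0.14, 0.45 and 0.20 in these lines. In shMLL1, 2 rather than 5 of them were over 2-fold lower, and 14.7% rather than 18.6% of all genes. Against shControl the median became -0.09 in shNFIB at day 0, 0.06 in shNFIB at day 7 and -0.32 in shMLL1 at day 7. At a threshold of 1.5-fold between days, 8 genes were higher and 6 lower in shControl (against 30.9% and 26.9% of all genes). There were 13 and 4 in shNFIB (25.4% and 23.7%), and 7 and 8 in shMLL1 (34.5% and 29.5%). At that threshold and against shControl, 2 were higher and 1 lower in shNFIB at day 0 (16.6% and 13.2% of all genes). At day 7 there were 9 and 4 in shNFIB (18.8% and 22.5%). In shMLL1 there were 2 and 11 at day 0 (19.2% and 20.4%), and 1 and 9 at day 7 (14.8% and 14%). The knockdown lines had 0 called lysosomal genes under every alternative run. Over all genes the calls in shNFIB were 19 higher and 51 lower, 297 and 318 with DESeq2, 341 and 347 with no filter, 291 and 302 with its 4 libraries alone, and 5 and 5 at a mean CPM of 10. In shMLL1 they were 2 and 3, 177 and 233, 236 and 290, 90 and 109, and 0 and 0. The cause was not tested. No paired analysis by replicate number was possible because each condition has 1 library, and the line served as the block.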

Other observations

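Genes around the lysosome were followed with lists of 115 other genes, of which 113 were tested. At day 7 edgeR's quasi-likelihood test over the 3 lines called 19 higher and 7 lower (background 16.9% and 16.7% of all genes), the median log2 fold change was 0.09, and 0 were called in either knockdown line. Summed over other hydrolases and luminal proteins, shMLL1 held 4090 CPM against 3720 in shControl at day 0, and 2770 against 3380 at day 7. Ctsl made up 1700 and 1040 CPM of the day 0 sums. Such sums follow the most read genes, and the share of genes below shControl was not counted for these lists. The sums of other V-ATPase subunits were 2570 against 1860 CPM and then 1930 against 2300 CPM. Other membrane proteins, sorting genes and HOPS genes summed to less in shMLL1 on both days. Of 28 other hydrolases and luminal proteins, 3 of the 27 tested were higher at day 7 and 3 lower. Ctsk, for the collagen-cleaving cathepsin K and also on the list of osteoclast markers, had the largest estimate (2.58, adjusted p = 0.015) and was at 12.1 CPM in shNFIB at day 7 and at 0.331 to 1.71 CPM in the other 5 libraries. Prcp, for a prolylcarboxypeptidase, was lower (-1.75, adjusted p = 0.00611) and Pla2g15, for a lysosomal phospholipase, higher (1.15, adjusted p = 0.00458). Of 16 other membrane proteins, 5 of the 15 tested were higher and 0 lower. They included Cd68 (1.78, adjusted p = 0.00592, at 1.20 to 7.58 CPM), the cystine exporter gene Ctns (1.14, adjusted p = 0.00422) and the two-pore channel gene Tpcn2 (1.14, adjusted p = 0.00708).

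Of 10 genes for mannose 6-phosphate tagging and sorting, 3 were higher and 1 lower. Sort1, for the sorting receptor sortilin, had 3.17 (adjusted p = 0.00131), from 0.762 to 4.57 CPM at day 0 and 10.5 to 32.5 CPM at day 7. Gnptg and Gga3 were higher (0.88 and 0.85), and Igf2r, for the large mannose 6-phosphate receptor, was lower (-0.79, adjusted p = 0.045), named after its value was seen. Among 15 other V-ATPase subunits, Atp6v0a1 was higher (0.92) and Atp6ap2 lower (-1.0). The largest estimate there, 1.86 for Atp6v0d2, was not called (adjusted p = 0.182). Of 17 genes of mTORC1 docking, Slc38a9 (0.77) and Tsc2 (0.67) were higher, and Rragd (0.78, adjusted p = 0.0687) was not called. Of 22 autophagy genes, 5 were higher and 2 lower, with Gabarapl1 (1.78, adjusted p = 0.00214), Ulk1 (1.0) and Uvrag (-0.95) having the largest estimates. Of 7 genes for HOPS tethering and late endosomes, 0 were called, with Vps39 (0.58, adjusted p = 0.0576), Vps11 (0.53, adjusted p = 0.0524) and Vps33a (-0.35, adjusted p = 0.165) having the largest estimates.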
